A study of Mus musculus with 7 samples.

Results

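The inflammasome and gasdermin genes examined here are 10 mouse genes chosen by name: the sensors Nlrc4 and Nlrp6, the adaptor Pycard, the caspases Casp1 and Casp4, the cytokine Il18, and the gasdermins Gsdmd, Gsdme, Gsdmc2 and Gsdmc4. All 10 symbols were found by Ensembl identifier in a table of raw read counts that held 55414 genes. The counts came from bulk RNA-seq of Paneth cells (PCs), the granule-rich antimicrobial cells of the crypt base, which had been isolated on a cell sorter from the small intestine of C57BL/6J mice. One group of mice had received tumour necrosis factor (TNF), an inflammatory cytokine, and the control group phosphate-buffered saline (PBS), and the intestine was taken 15 h later. The data hold 3 PBS and 4 TNF libraries, each from another mouse per the series description, and both groups carry no other listed allele or agent. Dose, sex, age, gut region and batch were not among the labels.

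Inflammasomes are protein platforms that switch on inflammatory caspases. A sensor such as NLRC4 or NLRP6 meets a microbial or danger signal and, directly or through the adaptor ASC (the product of Pycard), recruits caspase-1, which matures interleukin-1β and interleukin-18. Caspase-11, the product of mouse Casp4, binds cytosolic lipopolysaccharide itself, and both caspases cleave gasdermin D, whose freed amino-terminal part forms membrane pores and can cause a lytic death called pyroptosis. In the gut epithelium these proteins are known for the defence against enteric bacteria, for the expulsion of infected cells and, for NLRP6, for the secretion of mucus.

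Library totals ran from 15511455 to 19193721 counts. Of 14329 genes tested with edgeR's quasi-likelihood test, 59.6% were called at a Benjamini-Hochberg adjusted p under 0.05, with 29.5% higher and 30.1% lower after TNF, so a called gene was the usual case in this comparison. The summed level of 8 PC markers covered 166672 to 266895 CPM (counts scaled to 1000000 per library on TMM-adjusted library sizes) in the PBS libraries and 158991 to 285008 CPM in the TNF libraries, a sum made up mostly of Lyz1, Defa24 and Itln1, none of which was called. Of the 8 markers, Mmp7 was called higher (log2 fold change 0.88 ± 0.21, SE), and Clps (-2.27 ± 0.43), Pnliprp2 (-1.39 ± 0.14) and Habp2 (-1.26 ± 0.16) were called lower. Markers of other cells were present as well, and their values are given beside the results they move with. In bulk RNA, fewer cells of a type and less RNA per cell cannot be told apart.

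Of the 10 genes, 9 passed the filter on low counts and 8 were called, 4 higher (Casp4, Gsdmd, Nlrc4 and Casp1) and 4 lower (Nlrp6, Gsdmc4, Gsdme and Pycard). The same 8 genes had CPM values in the TNF libraries that did not overlap those in the PBS libraries, which was so for 60.7% of all tested genes. The median log2 fold change of the 9 tested genes was -0.03, beside 0.0017 for all tested genes. Since most tested genes were called, the 8 calls among 9 tested genes are a description, and no test of the list as a whole was made. By size of change, 2.0% of tested genes rose more on the log2 scale than Casp4, 2.81% rose more than Gsdmd, and 1.26% fell more than Nlrp6.

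**Figure D1:**
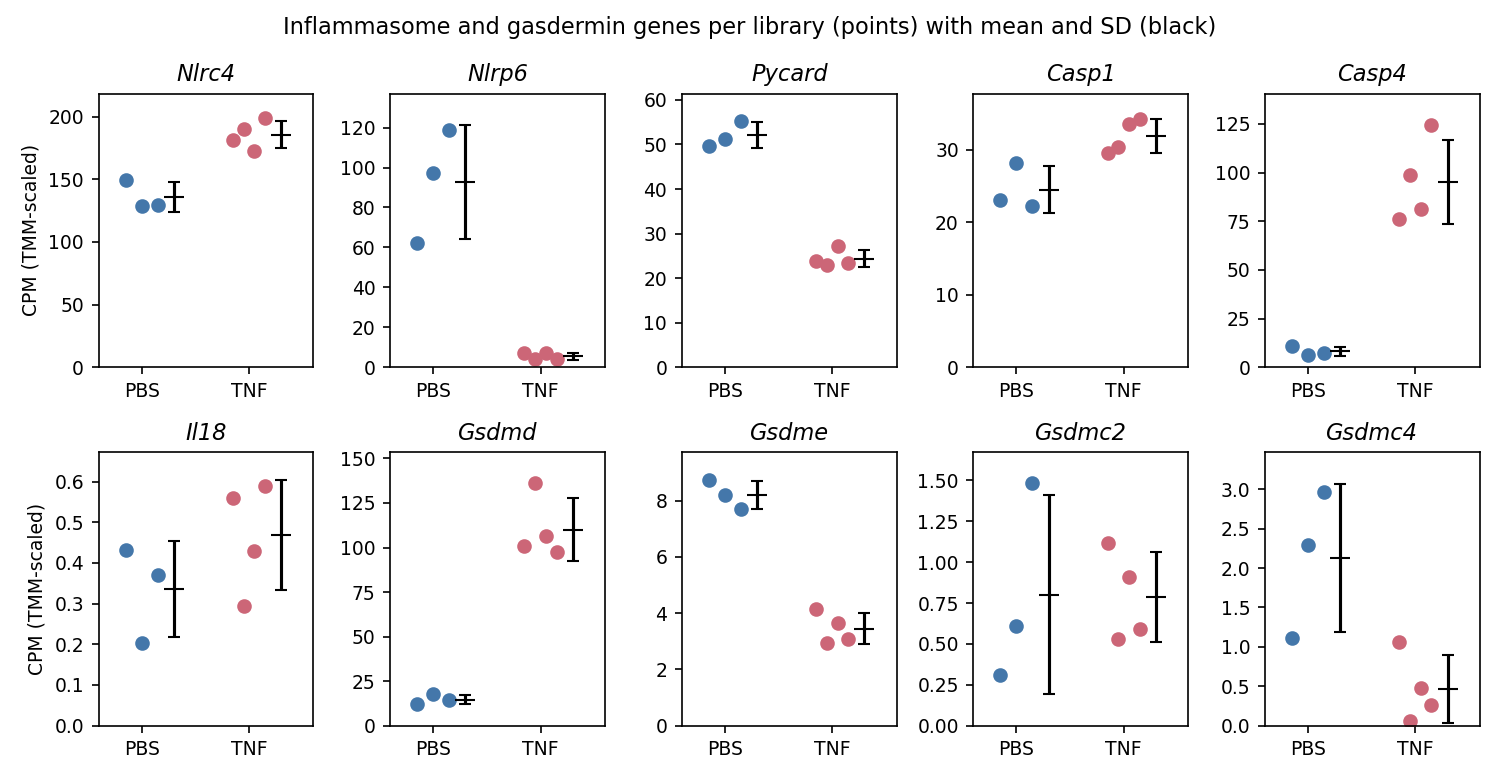
Level of each of the 10 genes in CPM (vertical axis, starting at 0 and drawn to its own scale in each panel) in the 3 PBS and 4 TNF libraries; each point is 1 library, and the black bar gives the mean and SD. The TNF points lie wholly above the PBS points for Casp4, Gsdmd, Nlrc4 and Casp1, wholly below them for Nlrp6, Pycard, Gsdme and Gsdmc4, and among them for Il18 and Gsdmc2.

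The 2 sensors moved in opposite directions. Nlrc4 (ENSMUSG00000039193, GRCm39 chromosome 17, 74732433 to 74766165, minus strand), which senses bacterial flagellin and secretion systems together with the NAIP proteins, was at 149, 129 and 130 CPM in the PBS libraries and at 182, 190, 173 and 199 CPM in the TNF libraries. Every TNF library was above every PBS library, though the step was small. The log2 fold change was 0.45 ± 0.10 (SE, adjusted p = 0.00178 in edgeR). Of the annotated exon bases of Nlrc4, 17.9% are shared with Slc30a6 on the other strand, and it is unknown whether reads were counted by strand.

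Nlrp6 (ENSMUSG00000038745, chromosome 7, 140500815 to 140509105, plus strand), a sensor known from intestinal epithelium and goblet cells, had 62.2, 97.1 and 119 CPM after PBS. After TNF, the libraries held 7.22, 3.89, 6.91 and 4.12 CPM. The PBS libraries differed widely among themselves, and yet the lowest of them stood far above the highest TNF library. The PBS mean of 92.6 ± 28.4 CPM (SD, n = 3) compared with 5.54 ± 1.77 CPM (SD, n = 4) after TNF, which is 16.6-fold lower, with a log2 fold change of -4.05 ± 0.27 (SE, adjusted p = 8.36e-07 in edgeR).

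Marker lists of other epithelial cells moved with Nlrp6. The summed goblet cell markers went from 6545 to 12671 CPM in the PBS libraries to between 5783 and 6518 CPM after TNF. Of these 5 genes, 4 were called lower. Most of the goblet sum after TNF was Muc2 (mean 5870 CPM), which was not called (log2 fold change 0.13, adjusted p = 0.637 in edgeR). The called genes Tff3, Clca1, Fcgbp and Zg16 had log2 fold changes of -2.14, -2.86, -5.62 and -4.59. For enterocytes the sums were 163 to 263 CPM and 14.7 to 20.2 CPM, with 6 of the 7 tested genes called lower. All 4 intestinal stem cell markers (2407 to 3533 CPM after PBS, 958 to 1589 CPM after TNF) and all 6 tuft cell markers (1276 to 2088 CPM, then 220 to 582 CPM) were called lower too, as were 3 of 7 enteroendocrine markers (48.6 to 112 CPM, then 21.5 to 31.8 CPM). None of these lists had a marker at 0 in both groups. Their part in the fall of Nlrp6, or of the other genes that fell, was not tested.

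Pycard (ENSMUSG00000030793, chromosome 7, 127588558 to 127593039, minus strand) was among the least variable of the 10 genes within a group. The PBS libraries held 49.6, 51.3 and 55.3 CPM and the TNF libraries 23.8, 22.9, 27.3 and 23.5 CPM. No TNF library came near the PBS range. The adaptor fell by 1.09 on the log2 scale (SE 0.11, adjusted p = 1.47e-06 in edgeR).

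The caspases lie next to each other on chromosome 9 on the plus strand, Casp1 (ENSMUSG00000025888) at 5298508 to 5307290 and Casp4 (ENSMUSG00000033538) at 5308828 to 5336783. No window of 75 or 150 bases was shared between their longest annotated transcripts, so reads of that length can be told apart. Casp4 held 10.6, 6.41 and 7.42 CPM in the PBS libraries. In the TNF libraries it held 76.3, 99.0, 81.2 and 124 CPM. Every treated mouse stood well above every control mouse. The PBS mean was 8.16 ± 2.20 CPM (SD, n = 3) and the TNF mean 95.2 ± 21.7 CPM (SD, n = 4), an 11.7-fold difference and a log2 fold change of 3.55 ± 0.22 (SE, adjusted p = 5.53e-08 in edgeR).

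Casp1, its neighbour, was at 23.1, 28.1 and 22.2 CPM after PBS and at 29.6, 30.4, 33.5 and 34.3 CPM after TNF. The groups did not overlap, but the highest PBS library lay just under the lowest TNF library. The log2 fold change was 0.38 ± 0.13 (SE, adjusted p = 0.0173 in edgeR). This call did not hold without PBS replicate 1 (0.35, adjusted p = 0.0644), without PBS replicate 3 (0.31, adjusted p = 0.0752) or without TNF replicate 3 (0.35, adjusted p = 0.0515). It was also lost with scaling by total counts only (0.22, adjusted p = 0.270), a setting that moved the median of all tested genes to -0.16.

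The promoter letters of Casp4 and Casp1 are shown. Each line gives 200 bases, 250 to 51 bases before a start site, from RefSeq on GRCm38.p6 (Casp4, chr9:5308599-5308798, plus strand, and Casp1, chr9:5298267-5298466, plus strand), with matches to the kappa-B consensus, the site that NF-kB proteins bind, in capitals.
Casp4: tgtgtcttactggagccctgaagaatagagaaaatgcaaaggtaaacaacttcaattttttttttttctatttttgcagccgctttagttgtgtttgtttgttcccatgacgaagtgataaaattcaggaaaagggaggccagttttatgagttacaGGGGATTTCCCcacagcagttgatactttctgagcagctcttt
Casp1: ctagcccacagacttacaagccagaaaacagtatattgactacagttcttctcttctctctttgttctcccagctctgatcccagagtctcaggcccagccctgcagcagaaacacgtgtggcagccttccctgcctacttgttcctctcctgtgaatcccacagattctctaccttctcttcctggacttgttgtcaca

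The capitals in the Casp4 line are 11 bases that hold a pair of overlapping matches, 93 to 83 bases before this start site. Windows of 300 bases around the start were at hand for 7 of the genes (Casp1, Casp4 with 2 starts, Pycard, Nlrc4, Nlrp6, Il18 and Gsdme) and were searched on both strands. Gsdmd, Gsdmc2 and Gsdmc4 had no entry. The kappa-B consensus was found in 4.51% of all 32851 windows and, among these genes, in that of Casp4. The letters GAAANNGAA of the interferon-stimulated response element (8.56% of all windows) and TTCNNNGAA of the gamma-activated site (8.3%) were in none of them. The AP-1 letters TGACTCA (5.2%) were found in Nlrp6, 140 to 134 bases before its start on the minus strand of the window. A match describes the letters of the window and is no evidence of binding, and its part in any change was not tested.

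Il18 (ENSMUSG00000039217, chromosome 9, 50466081 to 50493633, plus strand), a cytokine that caspase-1 matures, was close to the limit of detection. It had 7, 4 and 7 counts in the PBS libraries, against 10, 5, 8 and 9 counts after TNF. These ranges overlapped, and the gene did not pass the filter on low counts. Fitted without that filter, its log2 fold change was 0.48 (adjusted p = 0.709 in edgeR), so a difference was not detectable at this depth.

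Among the gasdermins, Gsdmd (ENSMUSG00000022575, chromosome 15, 75733974 to 75739257, plus strand), the target of caspase-1 and caspase-11, held 12.2, 17.5 and 14.3 CPM after PBS and 101, 136, 106 and 97.2 CPM after TNF. All 4 treated mice stood far above all control mice. Mean levels were 14.7 ± 2.66 CPM (SD, n = 3) and 110 ± 17.7 CPM (SD, n = 4), a 7.48-fold difference and a log2 fold change of 2.90 ± 0.16 (SE, adjusted p = 5.08e-09 in edgeR).

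Gsdme (ENSMUSG00000029821, chromosome 6, 50165868 to 50240842, minus strand), a gasdermin cleaved by the apoptotic caspase-3, went the other way. It held 8.72, 8.20 and 7.69 CPM in the PBS libraries and 4.14, 2.95, 3.64 and 3.08 CPM in the TNF libraries. The groups were clearly separate, and Gsdme fell by 1.24 on the log2 scale (SE 0.23, adjusted p = 3.32e-04 in edgeR). Of its annotated exon bases, 24.0% overlap Pals2 on the other strand, so its counts are uncertain if strand was not used.

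Gsdmc2 (ENSMUSG00000056293, chromosome 15, 63696195 to 63717026) and Gsdmc4 (ENSMUSG00000055748, chromosome 15, 63763113 to 63784146), minus-strand members of a cluster of related copies, were low in all libraries. Gsdmc4 held 18, 45 and 56 counts after PBS and 19, 1, 9 and 4 counts after TNF. Gsdmc2 held 5, 12 and 28 counts after PBS and 20, 9, 17 and 9 counts after TNF. In CPM, Gsdmc4 was 4.46-fold lower after TNF (log2 fold change -2.16 ± 0.67, SE, adjusted p = 0.0129 in edgeR), with its highest TNF library at 1.06 CPM just below its lowest PBS library at 1.11 CPM. Without PBS replicate 3 the call on Gsdmc4 was lost (-1.85, adjusted p = 0.0538), and without TNF replicate 1 the value was -2.94 (adjusted p = 0.00139).

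Gsdmc2 did not pass the test, with a log2 fold change of -0.03 ± 0.62 (SE, adjusted p = 0.970 in edgeR). Its sign hung on single libraries and was 0.75 without PBS replicate 3 (adjusted p = 0.398). The 2 copies share sequence: 37.4% of the 75-base windows of the longest Gsdmc2 transcript and 26.2% of those of Gsdmc4 also occur in another Gsdmc copy, and 15.5% and 8.8% of the 150-base windows. Reads from such windows may have been dropped or split by the authors' counting. With Gsdmc3 (13 counts in the PBS group and 25 in the TNF group) and Gsdmc (0 counts) added to them as a single feature, the copies had a log2 fold change of -0.98 ± 0.53 (SE, adjusted p = 0.131 in edgeR), so for the cluster as a whole no change was called.

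To compare levels between gasdermins, CPM values were divided by the annotated exon length, and each gene was given as its share of the 8 detected gasdermin genes in the same library. Gsdmd made up 34.5%, 49.0% and 34.3% of this sum in the PBS libraries and 88.3%, 93.7%, 87.1% and 87.8% in the TNF libraries. Its mean share rose from 39.3 ± 8.42% (SD, n = 3) to 89.2 ± 3.04% (SD, n = 4; exact permutation p = 0.0286, the smallest that 35 splits allow, 0.0381 adjusted over 4 shares). The share of Gsdmc4 fell from 8.01 ± 3.07% to 0.577 ± 0.551% and that of Gsdme from 5.05 ± 0.720% to 0.656 ± 0.152% (exact permutation p = 0.0286 and adjusted p = 0.0381 for both). For Gsdmc2, the shares of 1.13% to 4.64% after PBS and 0.474% to 1.27% after TNF overlapped (exact permutation p = 0.0571). Shares are parts of a single sum, so the rise of Gsdmd by itself lowers every other share, and the 4 tests are not independent. Gsdmc2, for 1, had a log2 fold change of only -0.03. The sizes of the shares also depend on the length used. By canonical transcript length, the mean share of Gsdme was 16.3% after PBS and 2.50% after TNF, that of Gsdmc4 4.48% and 0.377%, and that of Gsdmd 33.1% and 88.7%. Without division by length, Gsdme made up 19.2% and 2.82%, Gsdmc4 4.90% and 0.395% and Gsdmd 34.3% and 88.0%. By exon length, the gene that made up most of the remainder after PBS was Gsdma2, with a mean share of 41.7 ± 8.43% that was 3.79 ± 1.26% after TNF.

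**Figure D2:**
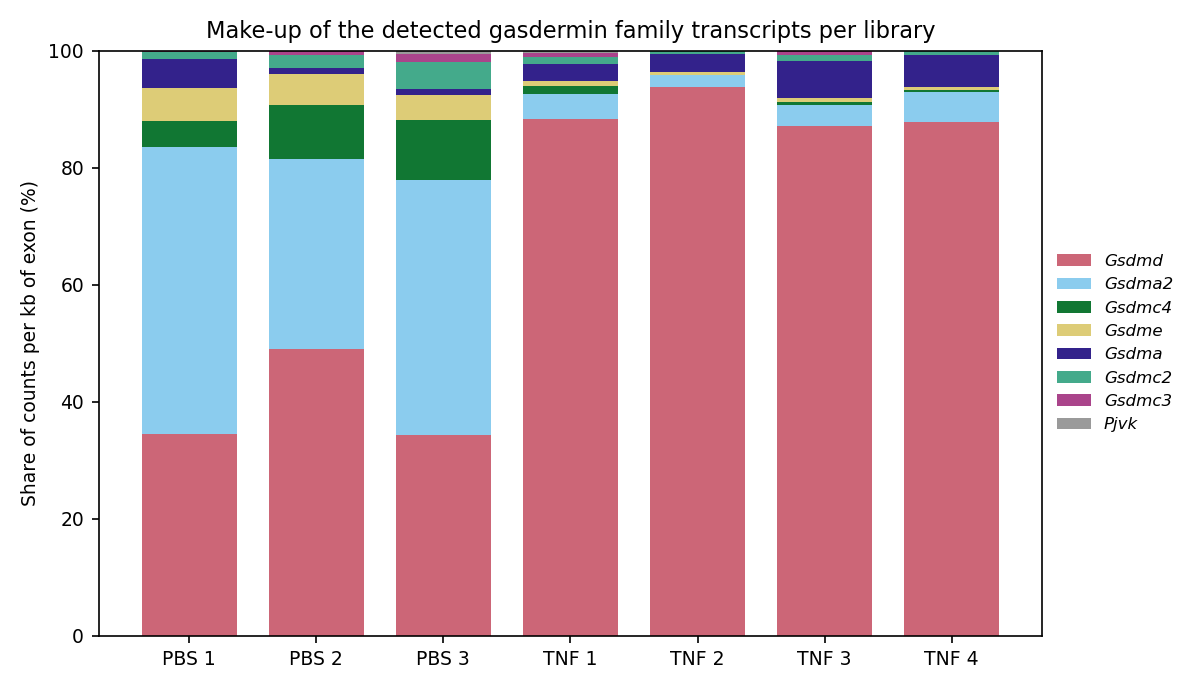
Share in percent (vertical axis, 0 to 100) of each of the 8 detected gasdermin genes in the summed counts per kb of exon, as 1 stacked bar for each of the 3 PBS and 4 TNF libraries. Gsdmd takes 34.3% to 49.0% of the bar in the PBS libraries and 87.1% to 93.7% in the TNF libraries, while the segment of Gsdma2 shrinks from 32.5% or more to 5.07% or less.

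Ratios of 2 genes within a library do not depend on how libraries are scaled. Counts of Casp4 for each count of Casp1 (0.5 counts added to each) ran from 0.229 to 0.462 in the PBS libraries and from 2.42 to 3.62 in the TNF libraries, an 8.92-fold shift. Nlrp6 to Nlrc4 ran from 0.417 to 0.913 after PBS and from 0.0206 to 0.0401 after TNF, which is 22.9-fold lower. In every mouse of a group the same gene of each pair was the more abundant in reads: Casp1 in the control mice and Casp4 in the treated ones, and Nlrc4 over Nlrp6 in all 7.

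Gsdmd to Gsdme shifted 17.9-fold, from 1.40 to 2.13 in the PBS libraries to between 24.1 and 45.7 in the TNF libraries. Gsdmc2 to Gsdmc4 shifted 6.53-fold, from 0.275 to 0.504 after PBS to between 1.05 and 6.33 after TNF, on low counts and with the shared windows described. Gsdmc2 to Gsdmd was 6.61-fold lower after TNF, while Gsdmc2 alone had a log2 fold change of -0.03. Each of these 5 ratios had no overlap between the groups (exact permutation p = 0.0286, adjusted p = 0.0343 over 6 ratios). Casp1 to Il18 was 49.8 to 123 after PBS and 50.3 to 93.7 after TNF, with a log2 difference of -0.08 (exact permutation p = 0.914), and the low counts of Il18 leave this ratio imprecise.

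**Figure D3:**
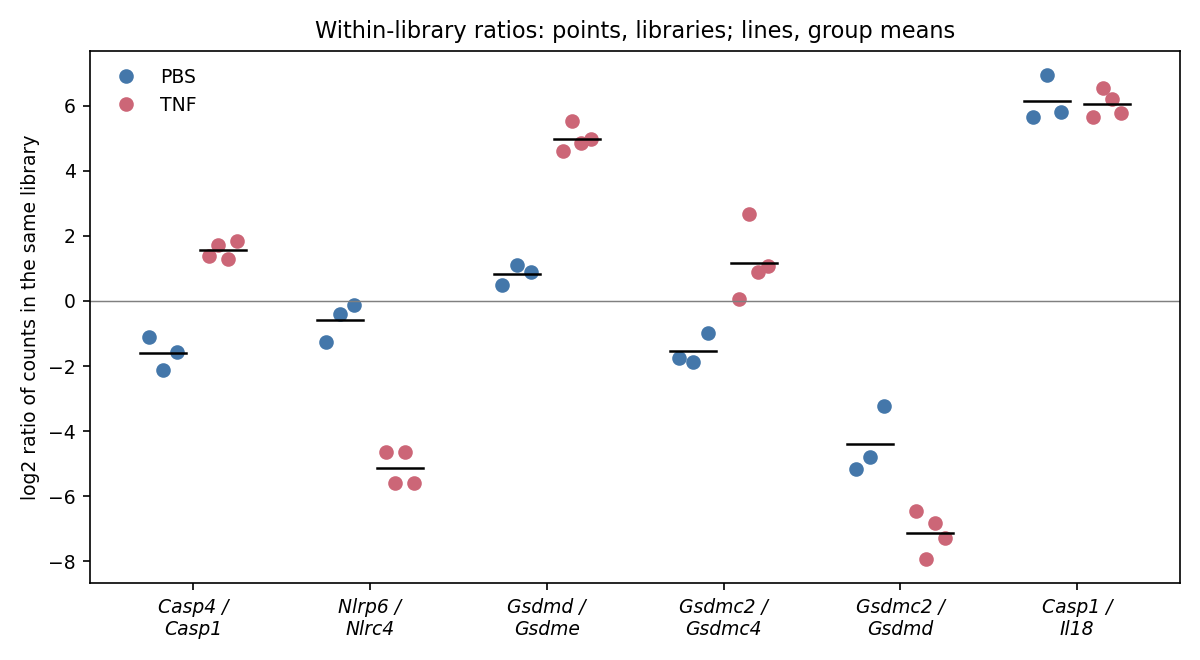
Log2 ratio of the counts of 2 genes in the same library (vertical axis) for 6 pairs of genes, with 1 point for each of the 3 PBS and 4 TNF libraries and a line at each group mean. The groups are apart for all pairs but Casp1 to Il18, whose means differ by -0.08.

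Per kb of annotated exon, the mean levels after PBS ran in the order Nlrc4 (28.1 CPM per kb), Nlrp6 (18.2), Pycard (12.3), Casp1 (7.80), Gsdmd (4.89), Casp4 (1.55), Gsdmc4 (1.02), Gsdme (0.627), Gsdmc2 (0.346) and Il18 (0.112). Nlrp6 and Pycard overlapped across libraries, as did each neighbouring pair from Casp4 downwards. After TNF, Nlrc4 (38.4 CPM per kb) and Gsdmd (36.6) led and overlapped each other, followed by Casp4 (18.1), Casp1 (10.2), Pycard (5.75) and Nlrp6 (1.09), with no overlap between neighbours. Gsdmc2 (0.340), Gsdme (0.264), Gsdmc4 (0.224) and Il18 (0.156) came last, and neighbours among them overlapped. By exon length, Nlrp6 was at rank 2 of the list in control mice and at rank 6 in treated mice, while Casp4 was at rank 6 and then at rank 3.

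The order depends on the length used, because the annotated exons of Casp4, Gsdme and Casp1 (5249, 13069 and 3136 bases) extend far beyond their canonical transcripts (1441, 2240 and 1531 bases). By canonical length, the leading levels after TNF were Casp4 (66.1 CPM per kb), Gsdmd (55.7) and Nlrc4 (39.1). Nlrp6 (1.25) was then at rank 7 after TNF, below Gsdme (1.54), and Il18 (0.345) stood above Gsdmc4 (0.224). After PBS, Casp1 (16.0) then stood above Pycard (12.6), and Gsdme (3.66) above Gsdmc4 (1.02).

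Further genes of the pathway were read in 9 lists with 64 genes, of which 46 were tested, 28 called higher and 6 lower, beside 29.5% higher and 30.1% lower among all tested genes. The counts of each list stand against the same background, with a median log2 fold change of 0.0017 over all tested genes. These lists hold no member of the 10 genes. Of 7 other gasdermin and ninjurin genes, 3 were tested, with 2 higher and 1 lower (median log2 fold change 1.75). Ninj1, whose product ruptures the plasma membrane in lytic death, rose from 24.4 ± 3.57 to 81.8 ± 11.3 CPM (1.75 ± 0.14, adjusted p = 1.60e-07 in edgeR). Gsdma2 fell by 1.80 on the log2 scale (SE 0.23, adjusted p = 1.37e-05 in edgeR). Gsdma rose (2.65 ± 0.53, adjusted p = 6.57e-04 in edgeR), and its value was 3.63 without PBS replicate 1, the control library with the most of it. Gsdma3 and Gsdmc had 0 counts in all 7 libraries.

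Of 13 other sensor genes, 7 were tested, 2 rose and 1 fell (median 0.23). Aim2, a sensor of cytosolic DNA, rose from 2.51 ± 0.307 to 18.3 ± 2.68 CPM (2.86 ± 0.20, adjusted p = 4.89e-08 in edgeR). Nlrp1b, a sensor of bacterial proteases, fell by 3.83 (SE 0.80, adjusted p = 9.31e-04 in edgeR), from 97 counts in all PBS libraries together to 8 in all TNF libraries, and its value was -4.72 without TNF replicate 1. The NAIP proteins are the receptors that pass ligands to NLRC4. Naip5, picked after its values were seen, rose from 45.8 ± 7.72 to 69.3 ± 4.09 CPM (0.60 ± 0.12, adjusted p = 7.33e-04 in edgeR), a call lost with scaling by total counts (0.41, adjusted p = 0.0821). Naip1 (0.50 ± 0.22, adjusted p = 0.0632 in edgeR) and Naip6 (0.23 ± 0.19, adjusted p = 0.319 in edgeR) were not called. These copies share sequence, with 18.8% of the 75-base windows of Naip5 and 7.7% of those of Naip2 also found in another Naip gene. Naip2, the most abundant of the list, had a log2 fold change of -0.21 ± 0.11 (adjusted p = 0.129 in edgeR) that was called with scaling by total counts (-0.35, adjusted p = 0.0389) and without PBS replicate 3 (-0.31, adjusted p = 0.0332). Leaving out that library raised the called sensors from 3 to 6, with Naip1 (0.75) and Naip6 (0.51) called as well. Nlrp3 had 2 counts in the PBS group and 5 in the TNF group.

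Of 8 other caspase genes, 7 were tested, 3 rose and 1 fell (median 0.28). Casp6, an executioner caspase, fell by 0.95 (SE 0.14, adjusted p = 3.68e-05 in edgeR).

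The list of interleukin-1 and interleukin-18 cytokines, receptors and antagonists had 10 genes, 5 tested, 4 higher and 1 lower (median 2.80). Il1a and Il1b had 0 counts in all 7 libraries, which allows up to 3 counts over a group, so neither cytokine was detected at this depth. Il18bp, which encodes the soluble trap of interleukin-18, went from 168 counts in the PBS group to 1470 in the TNF group (2.80 ± 0.17, adjusted p = 1.24e-08 in edgeR). Il1rn, for the interleukin-1 receptor antagonist, had 38 and 619 counts (3.70 ± 0.34, adjusted p = 6.97e-07 in edgeR). Il18bp and Il1rn were picked for the text after their values were seen.

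Il33, an alarmin of the same family, had 3 counts in the PBS group and 126 in the TNF group, a ratio of 33.4 after scaling for library size with a 95% exact interval of 11.2 to 164 that covers counting error only. All 3 counts lay in PBS replicate 2, and the fitted log2 fold change of 4.89 ± 0.85 (SE, adjusted p = 2.15e-04 in edgeR) was 7.97 without that library. Il1rap, the shared receptor chain, rose by a log2 fold change of 1.11 ± 0.13 (adjusted p = 8.13e-06 in edgeR). Il1r1, the receptor of interleukin-1, had a log2 fold change of -2.76 ± 0.92 (adjusted p = 0.0210 in edgeR), but the call was lost without PBS replicate 2 (-2.22, adjusted p = 0.105), without TNF replicate 2 (-2.42, adjusted p = 0.0584) and without TNF replicate 4 (-2.47, adjusted p = 0.0504), and the value was -5.41 without TNF replicate 1.

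All 4 guanylate-binding protein genes rose (median 5.62). Their products coat bacteria and lipopolysaccharide and are known to bring caspase-11 to its ligand. Gbp2 went from 1.14 ± 0.438 to 126 ± 60.2 CPM (6.78 ± 0.65, adjusted p = 1.23e-04 in edgeR). Gbp5 had 0 counts in the PBS group and 2648 in the TNF group, which is at least 702-fold higher against a floor of 3 counts over the PBS group.

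Of 9 genes of membrane repair by ESCRT-III, the machinery that sheds gasdermin pores, all were tested, 6 rose and 1 fell (median 0.40). Chmp2b rose from 44.4 ± 4.73 to 202 ± 26.5 CPM (2.18 ± 0.13, adjusted p = 1.03e-08 in edgeR) and Chmp4c fell by 0.64 (SE 0.09, adjusted p = 4.30e-05 in edgeR). Chmp4b, picked after its values were seen, went from 86.9 ± 16.0 to 342 ± 65.9 CPM (1.98 ± 0.18, adjusted p = 8.36e-07 in edgeR). Pdcd6ip, with the highest mean CPM over all 7 libraries but below Chmp4b after TNF (261 CPM), rose slightly (0.40 ± 0.12, adjusted p = 0.0123 in edgeR), a call lost without PBS replicate 3 (0.26, adjusted p = 0.0582) and with scaling by total counts (0.25, adjusted p = 0.0590).

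Of 7 transcription factor genes tied to this pathway, 4 rose and 1 fell (median 0.53). The NF-kB subunit genes Rela (1.90 ± 0.12, adjusted p = 1.32e-08 in edgeR) and Nfkb1 (1.39 ± 0.12, adjusted p = 3.70e-07 in edgeR) rose. Irf2, a regulator known to drive Gsdmd transcription, fell by 1.72 (SE 0.15, adjusted p = 4.76e-07 in edgeR), from 42.4 ± 4.90 to 12.9 ± 2.50 CPM. Of the other Irf genes of the list, Irf1 (0.80 ± 0.10, adjusted p = 1.39e-05 in edgeR) and Irf8 (0.53 ± 0.13, adjusted p = 0.00291 in edgeR) rose. The part of any of these factors in the rise of Gsdmd was not tested.

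Interleukin-4 and interleukin-13 are known to induce Gsdmc genes. Of their receptor chains, Il4ra rose (1.64 ± 0.12, adjusted p = 9.04e-08 in edgeR). Il13ra1 had a log2 fold change of 0.21 ± 0.13 (adjusted p = 0.195 in edgeR), called without PBS replicate 2 (0.35, adjusted p = 0.0480). Il2rg had 1 count in all. Of the inhibitors, Serpinb1a rose from 111 ± 12.6 to 313 ± 17.2 CPM (1.49 ± 0.11, adjusted p = 9.54e-08 in edgeR). Serpinb9 rose as well (0.83 ± 0.18, adjusted p = 0.00140 in edgeR), and Serpinb1b had 0 counts.

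**Figure D4:**
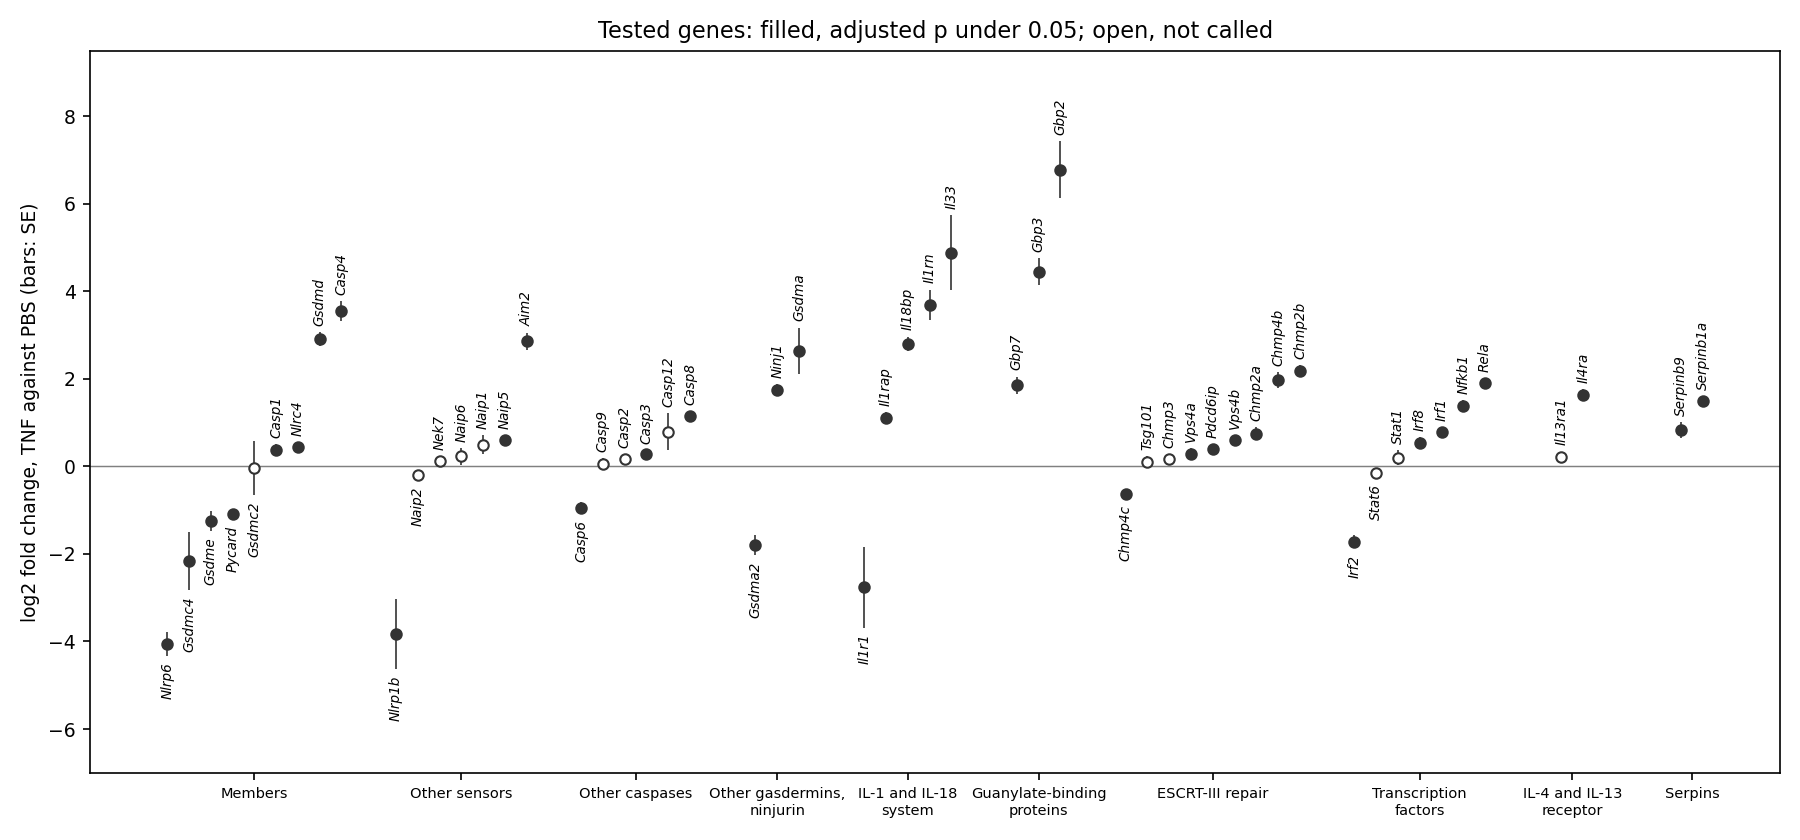
Log2 fold change after TNF with its SE (vertical axis) for the tested genes, grouped along the horizontal axis into the genes of the report (Members) and the 9 pathway lists; filled points have an adjusted p under 0.05 and Gbp5, with 0 counts after PBS, and 1 gene that is not reported here are not drawn. The guanylate-binding proteins lie above 0 throughout, and the 9 tested genes of the report spread from -4.05 (Nlrp6) to 3.55 (Casp4).

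Myeloid cells express many of these genes strongly, so leukocyte markers were read beside the rises. The 12 markers summed to 13.3 to 28.4 CPM in the PBS libraries and 17.7 to 20.4 CPM in the TNF libraries, with 4 of the 12 tested. The myeloid marker S100a9 was called higher, with 0 counts in the PBS group and 399 in the TNF group (5.92 ± 1.99 CPM, SD, n = 4), at least 106-fold against a floor of 3 counts over the PBS group. S100a8 had 0 and 32 counts (at least 8.48-fold higher), and Csf1r 1 and 14 counts, a ratio of 11.1 with a 95% exact interval of 1.69 to 471. In these 3 genes every TNF library was above every PBS library. Adgre1, a macrophage marker of the same list, had 16 counts in the PBS group and 8 in the TNF group. Fcer1g had 4 and 3 counts, and in both genes the groups overlapped. Ptprc, the largest part of the sum after PBS, was called lower (16.4 to 8.50 CPM), a call lost without PBS replicate 2 (-0.43, adjusted p = 0.211) or without TNF replicate 1, 2 or 4 (adjusted p = 0.0927, 0.0735 and 0.0575). Cd68 (1.37 and 2.86 CPM) and Itgam (0.781 and 0.850 CPM) were not called, and Cd3e and Nkg7 had 0 counts. The part of leukocytes in the rises of Casp4, Gsdmd and the other genes that rose was not tested. Stromal and endothelial markers summed to at most 0.448 CPM and erythroid markers to at most 0.0530 CPM in any library. The sort markers Cd24a and Kit were both called lower, with sums of 2874 to 4122 CPM after PBS and 2130 to 2546 CPM after TNF, and the part of this shift in the changes of the 10 genes was not tested.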

How the data were processed

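Bulk RNA of sorted PCs was measured in 3 PBS and 4 TNF libraries sequenced single-end on an Element AVITI. The authors deposited raw counts, whole numbers of reads per gene, with 1 column per library. The submitters' processing notes name FastQC, Trimmomatic 0.39, STAR 2.7.10a, DESeq2 and the builds mm10 and mm39, with no role or order. The counter, its annotation and its strand setting are unknown (not given in the sources used here). Of 55414 identifiers, 54749 (98.8%) were found in GENCODE M39 (GRCm39), which gave symbols, lengths and coordinates. Promoters came from RefSeq on GRCm38.p6, and motif positions refer to that build only.

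Counts were tested with edgeR 4.0.16 in R 4.3.3 (robust quasi-likelihood fit, two-sided, filterByExpr, TMM scaling, no covariate) over all 14329 genes that passed the filter, with Benjamini-Hochberg adjustment over all of them and a threshold of 0.05. The p-values measure the spread between mice. SEs were taken from the fitted change and its F statistic. For ratios and shares, an exact permutation test (two-sided) was used, whose smallest p over 35 arrangements is 0.0286. The script was tested on simulated data. No library was a copy of another.

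The alternatives were other scalings, other filters, the Wald test of DESeq2 1.42.0, a replicate block, each library left out, summed Gsdmc copies, another offset in ratios and other gene lengths. The canonical transcript length and the fit on replicates 1 to 3 without the block were chosen after seeing the data. The 10 genes, the pathway lists and the marker lists were chosen with earlier results of these data known, so counts over a list are descriptions. All 10 genes are named. In each pathway list, the called gene with the largest rise, the one with the largest fall and the gene with the highest mean CPM are named, and every gene of a list of 3 or fewer. Of the genes in the lists, 2 are not reported here by name. Other names were chosen after their values were seen.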

Additional observations from a re-analysis of the deposited data

Results flagged for a closer look

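Of 43 values examined within the TNF group, 1 stood apart from the other libraries of its group by more than Dixon's limit for 4 values. Il1r1 was at 1.01 CPM in TNF replicate 1 and at 0 to 0.0654 CPM in the other 3 TNF libraries, a gap of 0.935 of the range. Chance alone marks about 1 in 20 groups in this way.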

How the results depend on the processing

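Casp4, Gsdmd, Nlrc4, Nlrp6, Pycard and Gsdme were called with the same direction in all 15 alternatives run, with log2 fold changes of 3.38 to 3.79, 2.73 to 3.05, 0.29 to 0.53, -4.27 to -3.84, -1.26 to -1.05 and -1.39 to -1.17. The number of called genes among the 10 ran from 6 to 8. Scaling by total counts moved the median of all genes to -0.16, gave 3142 higher and 4614 lower genes in all and ended the calls on Casp1 (0.22), Pdcd6ip (0.25) and Naip5 (0.41). With a replicate block on replicates 1 to 3 of both groups, 7067 of all genes and 6 of the 10 were called. Under this block the calls on Casp1 (0.34, adjusted p = 0.0919), Gsdmc4 (-2.24, adjusted p = 0.0715) and Pdcd6ip (0.39, adjusted p = 0.0721), and on the markers Mmp7 (0.76) and Ptprc (-0.86), were lost and Gsdmc2 was at 0.22. No pairing by replicate number was seen: same-numbered libraries had correlations of deviations of -0.299, -0.0314 and -0.174. Those of libraries with different numbers ran from -0.205 to 0.35, and so few libraries cannot settle whether they were paired. Replicates 1 to 3 of both groups without the block gave Gsdmc2 at 0.0583, a setting chosen after seeing the data. Leaving out each library in turn gave 0.31 to 0.50 for Casp1, -2.94 to -1.79 for Gsdmc4, -0.40 to 0.75 for Gsdmc2 and -0.32 to 0.33 for the log2 ratio of Casp1 to Il18. In the same runs 3 to 6 sensors and 1 to 2 interleukin receptor chains were called. The cause of these moves was not tested. With a library left out, the exact tests of ratios and shares cannot go below 0.0667 or 0.1, so their p-values say nothing there, and the directions of the other 5 ratios and all 4 shares held. Over all alternatives, the difference in share ran from -16.4 to -4.10 percentage points for Gsdme and from -9.18 to -4.10 for Gsdmc4. Depth limits Il18, Gsdmc2 and Gsdmc4 most, with 18 to 119 counts over the PBS libraries.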
